A study of Mus musculus with 2 samples.

Results

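The transcription factors of T-cell memory and exhaustion described here were 10 genes taken by symbol: Tcf7, Lef1, Id2, Id3, Bach2, Satb1, Tox, Tox2, Eomes and Tbx21. All 10 were present once among the 32285 genes of both count matrices. Their unique molecular identifier (UMI) counts were followed through CD8, CD4, regulatory T (Treg) and natural killer (NK) cells gated on marker genes, none of which was one of the 10. The cells were living CD45+ leukocytes sorted from B16-F0 tumours, a transplantable mouse melanoma, and loaded on a droplet 3' single-cell assay. The series held 1 wild-type and 1 knockout library; the labels name neither the deleted gene nor the strain, age or sex of the mice, nor how many mice were pooled, so no targeted gene could be checked. The labels call the cells tumour-infiltrating Treg cells, although the stated sort takes all CD45+ cells, and T, NK, B and myeloid cells were all present. With 1 library per genotype there is no spread between replicates, so no test was made; intervals in brackets are 95% intervals that cover counting error only.

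Tcf7, which encodes TCF-1, and Lef1 are HMG-box factors of the Wnt pathway that keep T cells in naive, memory and stem-like states. Satb1 organises chromatin in developing and resting T cells, and Bach2 is a repressor that restrains effector genes. Id2 and Id3 have no DNA-binding domain and block E proteins, Id2 mainly in effector T cells and NK cells and Id3 in memory-forming T cells. Tox and Tox2 are HMG-box factors induced by lasting antigen-receptor signals and required for exhausted CD8 T cells. Eomes and Tbx21, which encodes T-bet, are T-box factors that drive cytotoxic genes and NK-cell maturation.

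On the GRCm38 (mm10) genome Tcf7 lies on chromosome 11, 52252371 to 52283014, Lef1 on chromosome 3, 131110471 to 131224356, Satb1 on chromosome 17, 51736187 to 51833290 and Bach2 on chromosome 4, 32238804 to 32586108. Id2 lies on chromosome 12, 25093799 to 25097140, and Id3 on chromosome 4, 136143497 to 136145755. Tox lies on chromosome 4, 6686353 to 6991557, Tox2 on chromosome 2, 163203125 to 163324170, Eomes on chromosome 9, 118478212 to 118486132 and Tbx21 on chromosome 11, 97098071 to 97115331. All 10 are annotated as protein-coding. RefSeq start sites on GRCm38.p6 were matched for 9 of the 10 genes by symbol, Tox being the exception. RefSeq gives 4 start sites for Lef1 and 5 for Satb1. The 250 bases upstream of start site 1 are shown for Lef1 and Satb1, which were lower together in knockout CD8 and CD4 cells, and for Tbx21, which was inside the fold there; these 3 were chosen after the values were seen. Capitals mark matches, on either strand, to 1 of 5 motifs: CTTTGAT (TCF and LEF factors), CACCTG and CAGCTG (E-boxes of E proteins), AGGTGTGA (T-box factors) and TGANTCA (AP-1 and BACH factors). None of the 5 contains another.
Lef1, chr3:131110047-131110296, plus strand: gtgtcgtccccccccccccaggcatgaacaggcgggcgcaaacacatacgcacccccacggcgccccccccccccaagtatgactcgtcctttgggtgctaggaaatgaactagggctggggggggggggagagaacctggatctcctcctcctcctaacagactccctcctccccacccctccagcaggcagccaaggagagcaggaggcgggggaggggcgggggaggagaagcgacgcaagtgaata
Satb1, chr17:51833291-51833540, minus strand: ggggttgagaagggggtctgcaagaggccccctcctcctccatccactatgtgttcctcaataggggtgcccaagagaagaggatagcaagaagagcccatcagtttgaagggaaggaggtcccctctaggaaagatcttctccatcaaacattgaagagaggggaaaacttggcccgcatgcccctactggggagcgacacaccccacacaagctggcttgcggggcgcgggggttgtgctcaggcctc
Tbx21, chr11:97115332-97115581, minus strand: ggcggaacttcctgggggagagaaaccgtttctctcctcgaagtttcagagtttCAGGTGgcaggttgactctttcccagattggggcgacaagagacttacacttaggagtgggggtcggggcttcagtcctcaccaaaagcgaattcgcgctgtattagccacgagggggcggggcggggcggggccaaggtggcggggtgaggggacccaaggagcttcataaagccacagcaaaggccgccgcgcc
The windows of Lef1 and Satb1 shown here held none of the 5 motifs, and that of Tbx21 held CACCTG on the opposite strand. Upstream of start site 3, which is not shown, Lef1 held CAGCTG, and Satb1 held CACCTG and CAGCTG; the other start sites of both held none. Over all 32817 upstream windows of the same length, CACCTG occurred in 17.2%, CAGCTG in 13.01%, TGANTCA in 6.75%, CTTTGAT in 3.21% and AGGTGTGA in 1.12%. A match describes these letters and is not evidence of binding.

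The libraries held 98438084 UMIs over 11432 wild-type barcodes and 112544655 over 11398 knockout barcodes, and 42 barcodes occurred in both. The CD8 gate took 1533 wild-type and 2211 knockout cells, the CD4 gate 480 and 772, the Treg gate 268 and 554, and the NK gate 1054 and 1804. Together they held 29.9% of wild-type and 47.98% of knockout cells kept. Trac, a T-cell receptor constant gene, had a UMI in 89.5% and 91.4% of CD8-gate cells, and Klrk1, an NK receptor not used in gating, in 96.8% and 95.6% of NK-gate cells. The Treg gate asked for 3 of Ikzf2, Il2ra, Ctla4 and Tnfrsf18 and did not use Foxp3, the factor that defines the lineage; a Foxp3 UMI was found in 49.3% of its wild-type and 21.1% of its knockout cells, and a Cd4 UMI in 61.2% and 67.9%. Activated conventional T cells can also express these 4 genes, so the gate is named for its markers only. The 4 B-cell markers summed to 7.63 to 11.4 CPM (UMIs of a gene in 1000000 UMIs of the gate) in the 4 wild-type gates and to 1.13 to 2.401 CPM in the knockout gates, with Ms4a1 at 0 in knockout CD4 and NK cells. The 5 myeloid markers summed to 891 and 827 CPM in CD8, 1308 and 748 CPM in CD4, 1973 and 1579 CPM in Treg and 2278 and 2688 CPM in NK cells, against 17202 and 17294 CPM in myeloid cells; they include Fcer1g, which NK cells also express, and Cst3, a broadly expressed gene, neither of which was used in gating. Several of the other markers of both lists were used to exclude cells, so their low sums follow in part from the gates.

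The first question was where each gene was expressed. Tcf7 was highest in CD4 cells, at 317 CPM [296, 339.7] in the wild-type and 224 CPM [209.7, 239] in the knockout library, and lowest in Treg cells, at 61.9 and 43.4 CPM. CD8 cells stood at 182 CPM [175, 189] and 80.3 CPM [76.9, 83.9], and NK cells at 156 CPM [147, 167] and 102 CPM [96.05, 109]. The order of the middle pair thus differed, CD8 above NK in the wild-type and NK above CD8 in the knockout library, with no overlap of intervals in either. Lef1 had the same top and bottom gates, with 203 and 99.9 CPM in CD4 cells and 44.7 and 39.5 CPM in Treg cells. Its levels were 106 and 49.7 CPM in CD8 cells and 56.2 and 50.1 CPM in NK cells, and the intervals of CD8 and NK cells overlapped in the knockout library, as did those of NK and Treg cells in the wild type.

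Satb1 and Bach2 shared an order in both libraries, NK above CD4 above CD8 above Treg. Satb1 stood at 317 and 287 CPM in NK cells, 206 and 109.7 CPM in CD4 cells, 165 and 85.5 CPM in CD8 cells and 65.1 and 62.1 CPM in Treg cells, and no neighbouring intervals overlapped. Bach2 was at 47.9 and 45.1 CPM in NK cells and at 17.5 and 8.13 CPM in Treg cells; CD4 (34.3 and 18.3 CPM) and CD8 cells (27.3 and 16.2 CPM) had overlapping intervals in both libraries. B cells, gated as a background population, held more Bach2 than any of the 4 gates, 157 and 108 CPM, and Satb1 at 226 and 141 CPM, so only the myeloid gate serves as a background for these genes (4.09 and 4.13 CPM for Bach2, 7.996 and 7.43 CPM for Satb1).

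Id2 was highest in NK cells, at 734 CPM [713, 756] and 825 CPM [807, 843], and lay between 351 and 530.2 CPM in the 3 T-cell gates. Id3 had its highest level in CD8 cells (23.6 and 9.92 CPM) and its lowest in NK cells (4.13 and 1.13 CPM), where 25 and 11 UMIs were counted. Treg (11.1 and 4.06 CPM) and CD4 cells (6.87 and 7.92 CPM) lay between them, with intervals that overlapped each other in both libraries. The CD4 interval also overlapped that of NK cells in the wild-type and that of CD8 cells in the knockout library. The genes were not limited to these gates, Id2 being found in myeloid cells (373 and 359 CPM) and Id3 in B cells (75.4 and 46.3 CPM).

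Tox was highest in CD8 cells (88.3 and 142 CPM), followed by Treg cells (82.2 and 77.4 CPM), CD4 cells (35.9 and 49.9 CPM) and NK cells (35.2 and 31.5 CPM), the same order in both libraries. The CD8 and Treg intervals overlapped in the wild-type library and were apart in the knockout library, and so with CD4 and NK cells. Tox2 was sparse, with 27 and 39 UMIs in CD8, 13 and 23 UMIs in CD4, 16 and 20 UMIs in Treg and 1 and 1 UMIs in NK cells. Its level was 4.96 and 5.52 CPM in CD4 and 5.72 and 3.69 CPM in Treg cells, whose intervals overlapped, and 1.83 and 1.52 CPM in CD8 cells, whose wild-type interval overlapped that of CD4 cells.

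Both T-box genes were highest in NK cells. Eomes stood at 253 CPM [240.1, 266] and 215 CPM [206, 224] there, at 65.1 and 52.2 CPM in CD8 cells, at 4.58 and 5.52 CPM in CD4 cells and at 4.29 and 8.497 CPM in Treg cells, whose intervals overlapped. Tbx21 was flatter, at 67.2 and 73.5 CPM in NK cells and 31.2 and 31.3 CPM, 24.03 and 26.9 CPM and 21.5 and 21.8 CPM in CD8, CD4 and Treg cells; in both libraries the CD8 and CD4 intervals overlapped, as did those of CD4 and Treg cells. Eomes spanned a wider range of gates than Tbx21. The highest gate exceeded the lowest 58.9-fold and 38.9-fold in the wild-type and knockout libraries, against 3.13-fold and 3.37-fold for Tbx21. The Eomes folds rest on few UMIs in the lowest gate, 12 in wild-type Treg cells and 23 in knockout CD4 cells.

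**Figure D1:**
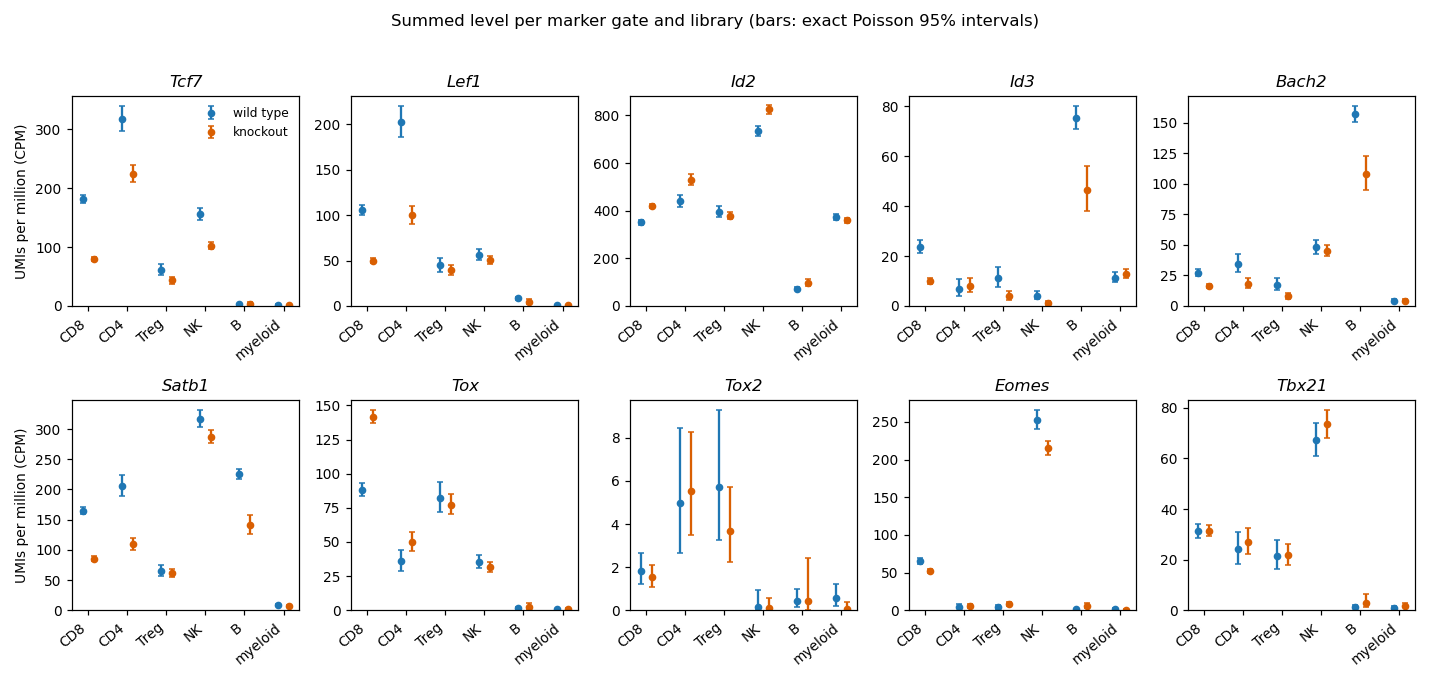
Level of each of the 10 genes (y axis, CPM of the gate's summed UMIs, from 0) in the CD8, CD4, Treg and NK gates and in the B and myeloid background gates (x axis), for the wild-type (blue) and knockout (orange) libraries; points are sums over cells and bars exact Poisson 95% intervals. Tcf7 and Lef1 peak in CD4 cells, Id2, Eomes and Tbx21 in NK cells and Tox in CD8 cells, and Tcf7 in CD8 cells stands at 182 CPM in the wild-type and 80.3 CPM in the knockout library.

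Free RNA in droplets can give a UMI to a cell that does not express the gene, so shares of cells were set beside background gates after every cell was thinned to 2000 UMIs. A Tcf7 UMI was found in 32.7% and 19.1% of thinned wild-type and knockout CD8 cells (59.8% and 39.03% unthinned), in 41.5% and 35.98% of CD4 cells and in 26.1% and 16.3% of NK cells. In B cells the shares were 0.387% and 0.244% and in myeloid cells 0.1205% and 0.224%. Tox was found in 9.699% and 16.1% of CD8 cells (27.7% and 40.4% unthinned) and 0.1205% and 0.224% of myeloid cells, and Eomes in 39.2% and 34.3% of NK cells (66.1% and 56.98% unthinned) and 0.149% and 1.22% of B cells. Median depths before thinning were 7199 and 7111 UMIs in CD8, 4758 and 4718 in CD4, 5154 and 4612 in NK, 3352 and 3504 in B and 10306 and 8994 in myeloid cells; 7 and 11 CD8, 5 and 16 CD4, 6 and 17 NK, 55 and 7 B and 2 and 11 myeloid cells were too shallow and left out. Thinned Id3 shares of NK cells (0.286% and 0.168%) lay below those of myeloid cells (1.69% and 2.61%), and Tox2 was found in at most 1.504% of any gate.

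The comparison of genotypes within CD8 cells showed the naive and memory factors lower and Tox higher in the knockout library. Of the 10 genes, all with at least 50 UMIs over both libraries, 5 were at least 1.5-fold lower (Tcf7, Lef1, Id3, Bach2 and Satb1) and 1 was higher (Tox). Of all 11068 genes with at least 50 UMIs in this gate, 12.6% passed that fold, 6.06% lower and 6.56% higher. The median log2 ratio was -0.54 over the 10 genes and 0.07 over all of them. Passing the fold is a rule of size, not a test, and the genes were listed with earlier results of these data known. The split of genes past the fold depends on scaling, since 51.97% were higher with plain totals and 37.6% with TMM factors, but the same 6 of the 10 passed under both.

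Tcf7 stood at 2689 and 2058 UMIs, a log2 ratio of knockout over wild type of -1.18 [-1.26, -1.10]. Lef1 (1566 and 1273 UMIs) had -1.09 [-1.20, -0.98], and Satb1 (2441 and 2191 UMIs) -0.95 [-1.03, -0.86]. Bach2, the repressor of effector genes, had -0.75 [-0.96, -0.55], and Id3, with 349 and 254 UMIs, -1.25 [-1.49, -1.01]. Tox, with 1305 and 3634 UMIs, had 0.68 [0.59, 0.78]. No single cell held more than 3.54% of the UMIs of any of these 6 genes in either library. The other 4 genes lay inside the fold: Id2 at 0.26 [0.21, 0.30], Eomes at -0.32 [-0.44, -0.20], Tbx21 at 0.00 [-0.16, 0.17] and Tox2, from 27 and 39 UMIs, at -0.26 [-1.01, 0.50].

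The makeup of the CD8 gate differed between the libraries. Cells with naive markers, such as Ccr7, and no UMI of Ccl5, Gzmk, Havcr2, Pdcd1 or Cxcr6, made up 10.5% of it in the wild-type library against 4.16% for the knockout, cycling cells 12.4% and 22.7%, Havcr2 cells 5.74% and 7.51%, and Gzmk cells 21.98% and 24.2%. The rest made up 49.4% and 41.4%. Cycling cells were deep, with medians of 20006 and 22581 UMIs, and so held 31.5% and 53.4% of the gate's UMIs. When the knockout subsets were given the UMI shares they had in the wild type, a step added once the data had been seen, the Tcf7 log2 ratio was -0.44, of Lef1 -0.39, of Satb1 -0.20 and of Bach2 -0.10. Id3 stood at -0.74, the one gene of the 10 still past the fold, and Tox at 0.33. Without cycling cells, Tcf7 was at -0.67, Lef1 at -0.67, Id3 at -0.93, Satb1 at -0.49, Bach2 at -0.32 and Tox at 0.71.

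Naive-marker CD8 cells had the highest Tcf7 (426 and 406 CPM), Lef1 (328 and 301 CPM), Satb1 (438 and 455 CPM) and Bach2 (74.1 and 77.7 CPM) of the 5 subsets and the lowest Id2 (84.2 and 76.1 CPM) and Tox (27.8 and 26.4 CPM). Between genotypes the log2 ratios in these cells were -0.07 [-0.29, 0.15] for Tcf7, -0.12 [-0.38, 0.13] for Lef1, 0.06 [-0.16, 0.27] for Satb1 and 0.07 [-0.46, 0.59] for Bach2. They were -0.15 [-0.67, 0.36] for Id2, -0.07 [-1.01, 0.81] for Tox, -0.49 [-1.46, 0.40] for Eomes and, past the fold but from 39 and 14 UMIs, -0.59 [-1.59, 0.32] for Id3. All 8 intervals included 0, and those of Id3, Tox and Eomes were wide. Cells with Gzmk, a granzyme of effector-memory T cells, held intermediate Tcf7 (120.2 and 101 CPM) and the highest Eomes (132 and 93.7 CPM) of the subsets. Their Eomes ratio was -0.49 [-0.73, -0.25] and their Tox ratio 0.45 [0.15, 0.75]. Id3 in Gzmk cells was 38 and 10 UMIs, 18.3 and 3.06 CPM, a log2 ratio of -2.58 [-3.75, -1.54], from fewer than the 50 UMIs asked for.

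Cells with Havcr2, which encodes the exhaustion receptor TIM-3, had the highest Tox of the subsets, 199.9 CPM [174, 229] and 237 CPM [217, 259], and cycling cells came next (154 and 183 CPM). The Tox ratio within them was 0.25 [0.01, 0.49] and 0.25 [0.13, 0.37], smaller than over the whole gate. Tcf7 was lowest in these same cells: 35.7 and 15.4 CPM in Havcr2 cells and 38.8 and 14.9 CPM in cycling cells, ratios of -1.22 [-1.95, -0.49] and -1.38 [-1.67, -1.08]. Lef1 was also lower in the knockout library there, at -1.39 [-2.19, -0.61] and -0.94 [-1.25, -0.63], from 34 and 26 UMIs and 144 and 220 UMIs. In the remaining CD8 cells Id2 was higher in the knockout library (244 and 381 CPM, 0.64 [0.55, 0.74]) and Tcf7 lower (295 and 207 CPM, -0.51 [-0.62, -0.40]), while Tox was at 0.62 [0.36, 0.87]. Whether that mixed subset holds the same cell states in both libraries was not tested.

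**Figure D2:**
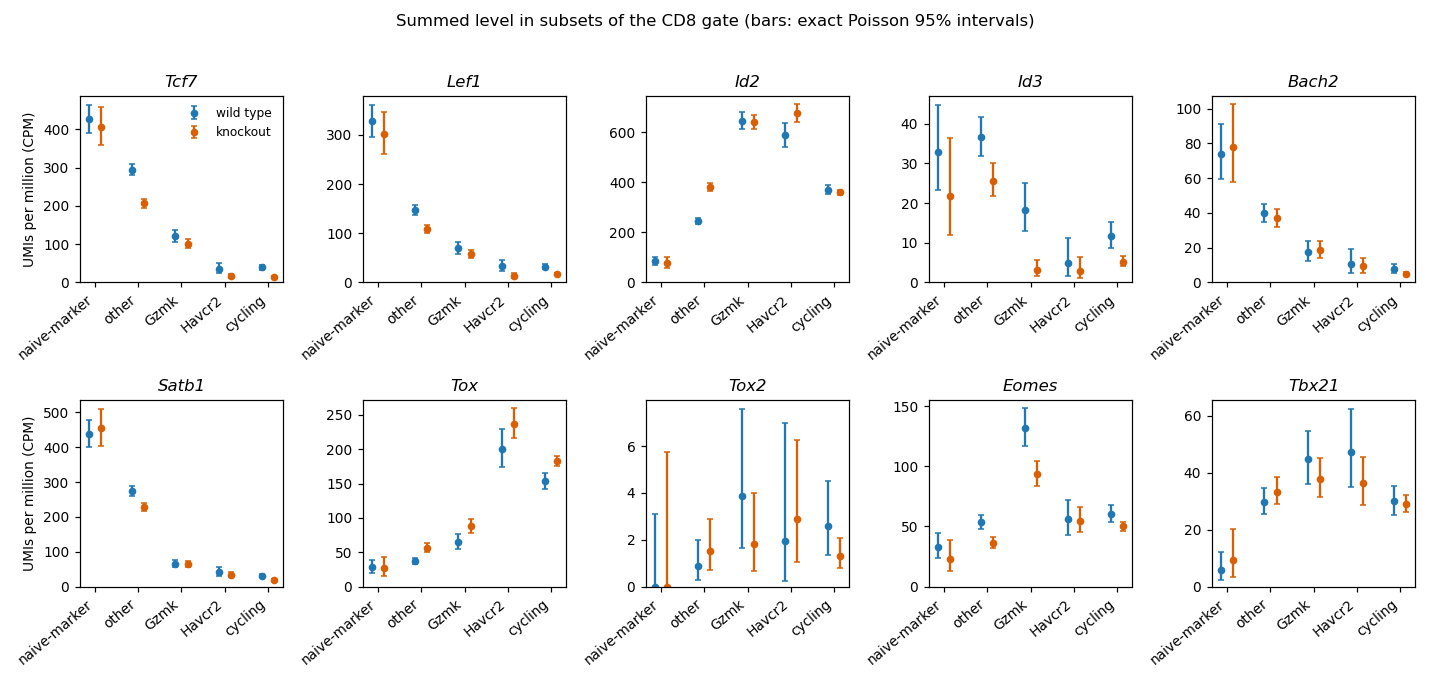
Level of each gene (y axis, CPM of the subset's summed UMIs, from 0) in 5 subsets of the CD8 gate (x axis) for the wild-type (blue) and knockout (orange) libraries, with exact Poisson 95% intervals. In naive-marker cells Tcf7, Lef1, Satb1 and Bach2 have overlapping intervals between the libraries, and Tox is highest in Havcr2 and cycling cells of both.

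To follow the same genes along exhaustion, thinned CD8 cells were ordered by how many of 10 exhaustion receptor genes (Pdcd1, Havcr2, Lag3, Tigit, Ctla4, Cd244a, Entpd1, Cd160, Cd101 and Tnfrsf9) held a UMI, an ordering chosen after the data were seen. Cells with 0, 1, 2 and 3 or more numbered 1046, 333, 95 and 52 in the wild-type and 1145, 632, 255 and 168 in the knockout library, so 68.5% and 52.05% had none. Tcf7 stood in that order at 288, 162, 78.9 and 9.62 CPM in the wild-type and at 193, 97.3, 43.1 and 11.9 CPM in the knockout library. Lef1 was likewise highest in cells with none, at 151, 82.6, 78.9 and 9.62 CPM in the wild-type and 103, 60.1, 37.3 and 20.8 CPM in the knockout library. Tox ran the opposite way, 38.2, 72.1, 174 and 259.6 CPM in the wild-type and 55.9, 108, 190.2 and 247 CPM in the knockout library. The last step rests on few UMIs, with 1 and 4 Tcf7 UMIs. The share of cycling cells was also higher along this order, from 7.07% to 38.5% and from 10.2% to 45.2%.

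At the same number of receptor genes found, some of the 10 genes had log2 ratios of knockout over wild type whose intervals excluded 0 and others did not. Counts in thinned cells miss expressing cells, Pdcd1 being found in 8.06% and 17.6% of thinned CD8 cells against 20.7% and 39.7% unthinned. Cycling shares also differed, at 7.07% and 10.2% in cells with none and 20.4% and 31.0% in cells with 1. Whether cells of equal count were alike in exhaustion state was not tested. Among cells with none, the ratio was -0.57 [-0.75, -0.39] for Tcf7, -0.55 [-0.80, -0.30] for Lef1, -0.53 [-0.72, -0.34] for Satb1 and -1.30 [-2.00, -0.64] for Id3, and 0.49 [0.35, 0.63] for Id2 and 0.55 [0.13, 0.97] for Tox, while Bach2 (-0.26 [-0.73, 0.21]), Eomes (-0.28 [-0.63, 0.06]) and Tbx21 (0.19 [-0.30, 0.69]) had intervals that included 0. Among cells with 1, Tcf7 was at -0.74 [-1.12, -0.35], Bach2 at -1.68 [-2.67, -0.74], Eomes at -0.72 [-1.28, -0.15] and Tox at 0.59 [0.10, 1.09]. In the same cells Id2 (0.07 [-0.14, 0.27]), Lef1 (-0.46 [-0.98, 0.07]), Satb1 (-0.44 [-0.90, 0.02]), Id3 (-0.26 [-1.38, 0.91]) and Tbx21 (-0.00 [-0.68, 0.70]) had intervals that included 0. With 2 receptor genes the interval of Tox was 0.13 [-0.45, 0.75] and that of Tcf7 -0.87 [-1.88, 0.18], both of which included 0. Lef1 was at -1.08 there, from 15 and 19 UMIs, with an interval that only just excluded 0.

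**Figure D3:**
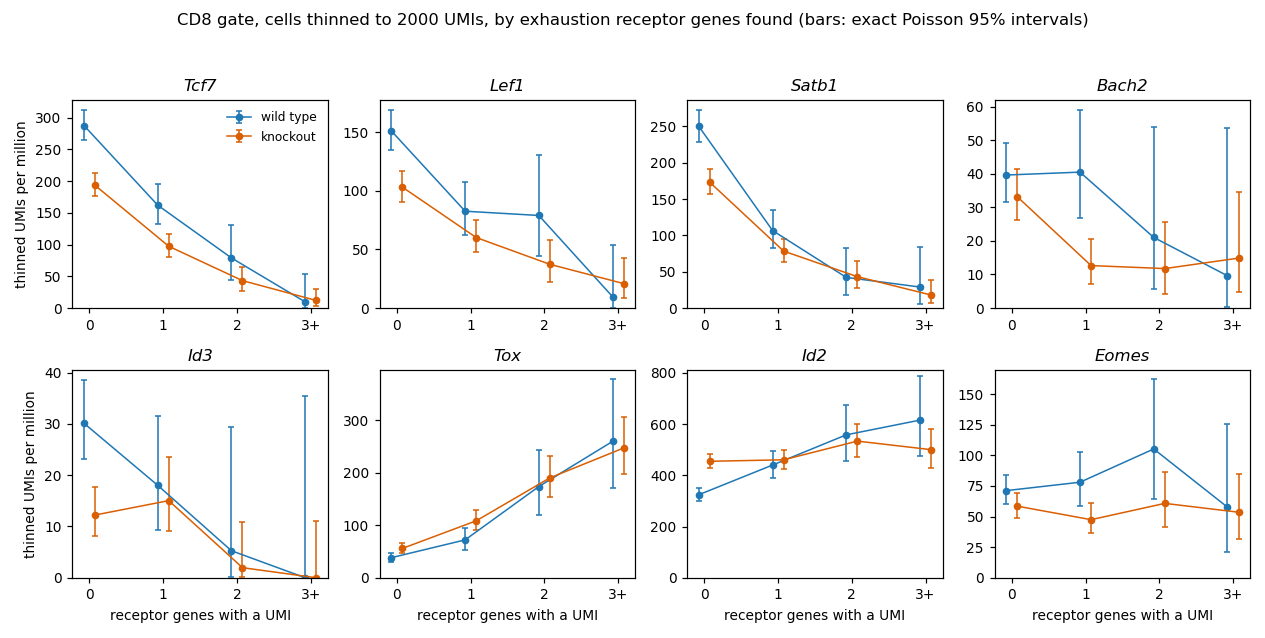
Level of 8 of the genes (y axis, CPM in cells thinned to 2000 UMIs, from 0) in CD8 cells with 0, 1, 2 and 3 or more of 10 exhaustion receptor genes detected (x axis), for both libraries, with exact Poisson 95% intervals. Tcf7 goes from 288 to 9.62 CPM and Tox from 38.2 to 259.6 CPM in the wild-type library, and the knockout points follow the same directions.

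CD8 cells with both Pdcd1, which encodes PD-1, and Tcf7 are described in the field as the stem-like cells of exhaustion. A Pdcd1 UMI was present in 317 of 1533 wild-type CD8 cells (20.7%) and 878 of 2211 knockout CD8 cells (39.7%). Of these Pdcd1 cells, 95 or 29.97% [24.98, 35.3] in the wild-type library also held a Tcf7 UMI, against 174 or 19.8% [17.2, 22.6] in the knockout library. Those with Tcf7 were shallower in both libraries (median 12130.0 against 14449 UMIs in the wild type and 7917 against 16658 in the knockout). Their cycling shares were 31.6% against 45.05% and 26.4% against 56.96%. Shares and levels were therefore also read in thinned cells, a step added once the data had been seen. Thinned, a Pdcd1 UMI was present in 8.06% [6.74, 9.54] and 17.6% [16.1, 19.3] of wild-type and knockout CD8 cells. It was present in 0.209% and 0 of 409 B cells (an interval that reaches 0.898%) and 0.1205% and 0.224% of myeloid cells. Of thinned Pdcd1 cells, 16 of 123 or 13.01% [7.62, 20.3] in the wild-type library held a Tcf7 UMI and 28 of 388 or 7.22% [4.85, 10.3] in the knockout library, intervals that overlapped. Without cycling cells the thinned shares were 16.7% [9.18, 26.8] and 11.7% [7.74, 16.8], and in cycling cells 6.67% [1.397, 18.3] and 1.71% [0.355, 4.93], overlapping in both.

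Pdcd1 cells with Tcf7, chosen on unthinned counts, numbered 95 and 174 and were compared with 221 and 703 other Pdcd1 cells within each library. Only their levels came from thinned counts, so depth still entered the choice of cells in both libraries. Lef1 was higher in the Tcf7 cells of both, at 63.2 against 15.8 CPM (log2 2.00 [0.53, 3.58]) in the wild-type and 60.3 against 22.05 CPM (1.45 [0.58, 2.30]) in the knockout library, and so were Bach2 (2.22 [0.54, 4.12] and 1.60 [0.17, 2.97]), Satb1 (1.42 [0.25, 2.62] and 2.13 [1.29, 2.97]) and Id3 (3.80 [0.76, 9.33] and 3.01 [0.79, 5.64]). Tox was lower in them, 78.9 against 208 CPM (-1.40 [-2.29, -0.60]) and 74.7 against 218 CPM (-1.55 [-2.18, -0.97]). Eomes (-0.21 [-1.25, 0.74] and -0.14 [-1.02, 0.66]) and Tbx21 (-1.004 [-3.44, 0.84] and -0.07 [-1.12, 0.85]) had intervals that included 0, as did Id2 in the wild-type library (-0.37 [-0.77, 0.01]) but not in the knockout library (-0.30 [-0.58, -0.03]). Tox2, with 0 and 1 UMIs in the Tcf7 cells, gave no direction. Pdcd1 itself was at -0.32 [-0.88, 0.22] and -0.09 [-0.42, 0.22]. Both kinds of cell were chosen for a Pdcd1 UMI, so this ratio cannot show whether Pdcd1 differs with Tcf7. The genes named in the following sentences were chosen after their values were seen. Among memory genes, the IL-7 receptor Il7r stood at 2.08 [1.43, 2.75] and 2.48 [2.07, 2.91], the egress receptor S1pr1 at 2.70 [1.15, 4.53] and 3.15 [2.23, 4.14] and Slamf6, a surface marker of stem-like cells, at 1.41 [0.28, 2.56] and 1.65 [0.89, 2.40]. Among effector and exhaustion genes, Havcr2 stood at -2.59 [-4.92, -0.94] and -4.81 [-10.12, -2.30], from 3 and 1 UMIs in the Tcf7 cells, perforin (Prf1) at -1.56 [-2.39, -0.82] and -2.15 [-2.73, -1.62] and granzyme B (Gzmb) at -0.97 [-1.44, -0.52] and -1.26 [-1.59, -0.94]. Ccr7, Dapl1 and Ltb of the memory list were also higher in the Tcf7 cells of both libraries. Other genes of these lists lay differently. The memory-list gene Xcl1 was at 0.19 [-0.37, 0.72] and 0.04 [-0.27, 0.34], and Bcl2 at 0.29 [-0.57, 1.11] and 0.85 [0.38, 1.31]. Cxcr5 and Il6ra had too few UMIs to give a direction. Cxcr3, a chemokine receptor of effector T cells, was higher in the Tcf7 cells of both libraries (1.03 [0.11, 1.93] and 1.41 [0.81, 1.99]). The receptor Cd160 was at 0.99 [0.12, 1.84] and -0.10 [-0.74, 0.49], Ctla4 at -1.07 [-2.29, -0.02] and 0.18 [-0.41, 0.73], the chemokine Ccl5 at -0.08 [-0.17, 0.02] and 0.41 [0.35, 0.47] and granzyme A (Gzma) at -1.98 [-3.03, -1.08] and 0.09 [-0.39, 0.55], ratios that differed in sign between the libraries for all 4.

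**Figure D4:**
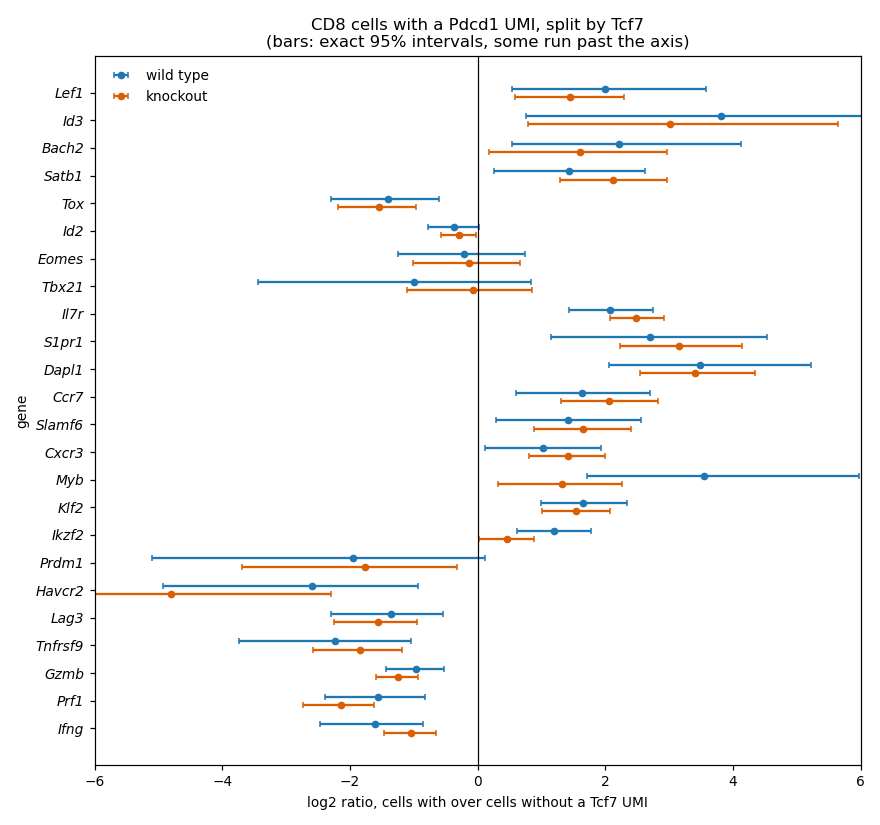
Log2 ratio of the level in CD8 cells with a Pdcd1 UMI and a Tcf7 UMI over that in Pdcd1 cells without a Tcf7 UMI (x axis) for a set of genes (y axis), from thinned counts in each library, with exact 95% intervals. Lef1, Id3, Bach2, Satb1 and the drawn memory genes Il7r, S1pr1, Dapl1, Ccr7 and Slamf6 lie right of 0 in both libraries. Tox, Havcr2, Lag3, Tnfrsf9, Gzmb, Prf1 and Ifng lie left of 0 in both.

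Across all thinned CD8 cells, 5.41% of wild-type and 5.95% of knockout cells with a Tcf7 UMI also held a Tox UMI, against 11.8% and 18.5% of cells without Tcf7. Lef1 went the other way, found in 29.5% and 20.7% of cells with and 16.3% and 10.96% of cells without a Tcf7 UMI. Id2 was found in 24.6% and 35.95% of CD8 cells with and 48.3% and 52.9% without Tcf7. In NK cells Tox shares with and without Tcf7 had overlapping intervals, at 7.66% and 6.51% with and 6.46% and 5.48% without, and Tbx21 was found in NK cells with Eomes at shares of 14.1% and 14.8% and without Eomes at 13.8% and 14.1%, whose intervals overlapped. Id3 was found in 1.29% [0.5596, 2.53] of wild-type CD8 cells with an Id2 UMI and 6.505% [4.99, 8.31] of those without, and in 1.46% and 2.53% in the knockout library, with overlapping intervals there.

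In CD4 cells, Lef1, Satb1 and Bach2 were lower in the knockout library. These 3 of the 8 measured genes passed 1.5-fold and 0 were higher, where 9.39% of all 7980 genes passed it, 2.83% lower and 6.55% higher; the median was -0.17 over the 8 and 0.09 over all genes. Of all genes past the fold, 69.8% were higher with plain totals and 49.3% with TMM. Lef1 stood at 203 and 99.9 CPM (-1.02 [-1.21, -0.83]), Satb1 at 206 and 109.7 CPM (-0.91 [-1.09, -0.73]) and Bach2 at 34.3 and 18.3 CPM (-0.91 [-1.37, -0.45]). Beside these ratios, the myeloid markers of the CD4 gate summed to 1308 and 748 CPM, of which Cst3 was 1186 and 622 CPM, while the defining macrophage genes Csf1r and C1qa, which the gate limits by its exclusion of cells with many myeloid UMIs, were at 4.196 and 4.56 CPM and 5.72 and 4.56 CPM. The CD4 gate also dropped cells with a Foxp3 UMI, which was found in 49.3% of wild-type and 21.1% of knockout Treg-gate cells. Treg markers summed to 317 and 481 CPM in the CD4 gate, of which Tnfrsf18 was 178 and 275 CPM and Ctla4 59.9 and 95.3 CPM. The part of the myeloid and Treg markers in the ratios was not tested. With at most 1 UMI of Csf1r, C1qa, C1qb and Lyz2 together and no B-cell UMI allowed, Lef1 was at -1.06, Satb1 at -0.95 and Bach2 at -0.95. Tcf7 was inside the fold at -0.50 [-0.64, -0.37], as were Id2 (0.27 [0.16, 0.37]), Tox (0.48 [0.12, 0.85]), Id3 (0.21 [-0.66, 1.12]) and Tbx21 (0.16 [-0.30, 0.63]). Eomes and Tox2 had too few UMIs.

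The CD4 gate held 25.2% naive-marker cells in the wild-type library, against 10.1% for the knockout. Within them Lef1 was at 439.8 and 253 CPM (-0.80 [-1.15, -0.46]), Satb1 at 385 and 237 CPM (-0.70 [-1.07, -0.35]) and Bach2 at 82.4 and 37.7 CPM (-1.13 [-2.09, -0.26]), from 56 and 14 UMIs. Tcf7 in the same cells was at 510.5 and 452 CPM (-0.17 [-0.45, 0.10]), an interval that included 0. In the other non-cycling CD4 cells Lef1 was at -0.51 [-0.77, -0.26], Satb1 at -0.55 [-0.78, -0.32], Tcf7 at -0.30 [-0.47, -0.13] and Bach2 at -0.14 [-0.77, 0.51]. At the wild-type makeup Lef1 was at -0.65, Satb1 at -0.62 and Bach2 at -0.64, and without naive-marker cells at -0.49, -0.56 and -0.10, all 3 inside the fold; Tox, at 0.60, was then the 1 gene past it.

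Treg-gate cells showed lower Id3 and Bach2 and higher Eomes in the knockout library, all from few UMIs. Of 9 measured genes 2 were lower and 1 higher past 1.5-fold, where 7.59% of all 8658 genes passed it, 4.35% lower and 3.23% higher; the median was -0.09 over the 9 and 0.01 over all genes. Id3 stood at 31 and 22 UMIs (11.1 and 4.06 CPM, -1.45 [-2.31, -0.61]) and Bach2 at 49 and 44 UMIs (17.5 and 8.13 CPM, -1.11 [-1.73, -0.49]). Weighting each cell equally took Bach2 to -0.34, thinning took Id3 to -0.03, and gating by a Foxp3 UMI took Bach2 to -2.15 from 19 UMIs over both libraries. With the highest doublet scores removed Bach2 was at -0.42, inside the fold. Eomes stood at 12 and 46 UMIs (0.99 [0.05, 2.04]), and 1 cell held 58.3% of the wild-type and 1 cell 30.4% of the knockout UMIs; without those cells the ratio was 1.72, and with the highest doublet scores removed it turned to -0.23. Tox (82.2 and 77.4 CPM, -0.09 [-0.32, 0.15]), Satb1 (-0.07 [-0.33, 0.20]), Id2 (-0.05 [-0.16, 0.05]) and Tbx21 (0.02 [-0.44, 0.50]) lay near 0, with intervals that included it, and Tcf7 was at 61.9 and 43.4 CPM (-0.51 [-0.80, -0.22]). These values also moved with processing. Tox ranged from -0.56 in thinned cells to 0.26 with no lineage exclusion, and Tbx21 reached 0.65 by a Foxp3 UMI. Tcf7 ranged from -0.68 with the highest doublet scores removed to 0.07 with no lineage exclusion. Perforin was at 14.3 and 78.9 CPM in the same gate (2.46 [1.99, 2.97]) and Pdcd1 at 55.4 and 113 CPM (1.03 [0.77, 1.29]), beside the lower share of cells with Foxp3; the part of these differences in the ratios above was not tested.

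In NK cells Tcf7 was lower in the knockout library, 947 and 992 UMIs or 156 and 102 CPM, a log2 ratio of -0.61 [-0.74, -0.48]. It was the 1 gene of 8 measured past 1.5-fold; 5.16% of all 9618 genes passed it, 1.64% lower and 3.51% higher, and of those past it 68.1% were higher with plain totals and 57.9% with TMM. The median log2 ratio was -0.15 over the 8 genes and 0.04 over all genes. Within NK subsets Tcf7 was at 159 and 105 CPM (-0.60 [-0.75, -0.44]) in cells with maturity markers such as Itgam and Klra8, which were 78.4% and 75.7% of the gate. Cycling NK cells were at -0.71 [-1.35, -0.05] and the unassigned rest at -0.71 [-1.03, -0.38], while the 46 and 68 cells with ILC1 markers (Itga1, Cd200r1 or Cxcr6) were at -0.28 [-0.91, 0.36], an interval that included 0. With no B-cell UMI and at most 1 myeloid UMI allowed, Tcf7 was at -0.57, and with no exclusion of other lineages at -0.50, both inside the fold. The ratio at the wild-type makeup was -0.60.

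Eomes was lower in NK cells with ILC1 markers than in those with maturity markers in both libraries. Eomes, which marks NK cells apart from ILC1, was at 280.1 and 241 CPM in mature-marker and 84.3 and 50.9 CPM in ILC1-marker cells. Tbx21, which both lineages need, was at 71.6 and 77.8 CPM and 60.7 and 89.8 CPM. The ILC1-marker levels rest on few UMIs, 25 and 21 for Eomes and 18 and 37 for Tbx21. Id2 was at 727 and 809 CPM and 890.4 and 1143 CPM. Between genotypes Eomes was at -0.23 [-0.33, -0.14] and Id2 at 0.17 [0.12, 0.22] over the gate, both inside the fold with intervals that excluded 0. Tbx21 (0.13 [-0.05, 0.31]), Lef1 (-0.16 [-0.37, 0.04]), Tox (-0.16 [-0.42, 0.10]) and Bach2 (-0.09 [-0.31, 0.13]) had intervals that included 0, and Satb1 stood at -0.14 [-0.23, -0.06]. Id3, with 25 and 11 UMIs, and Tox2 were not measured.

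**Figure D5:**
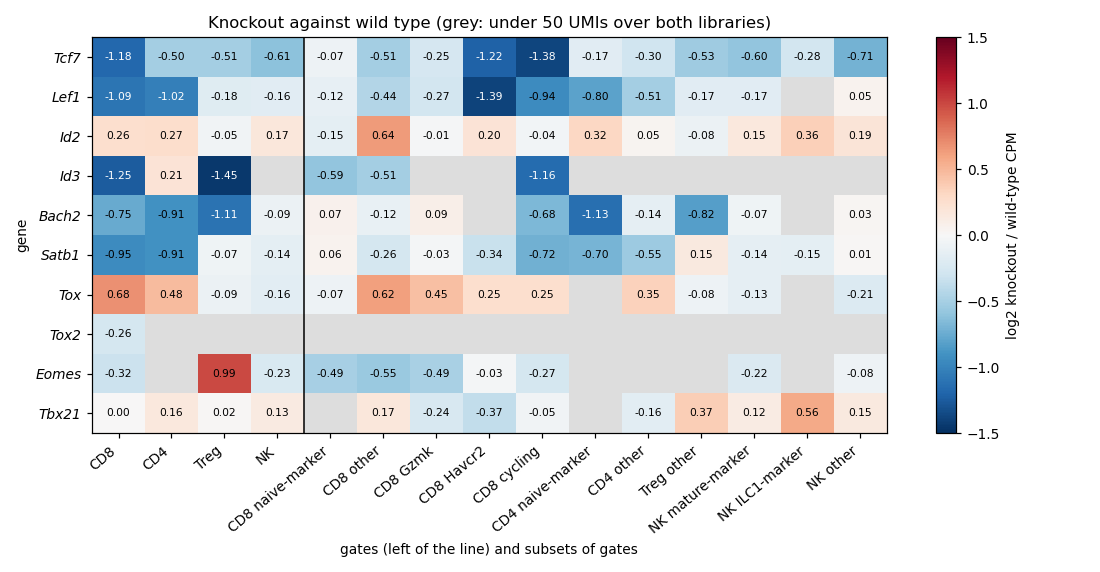
Log2 ratio of knockout over wild-type level for each gene (rows) in the 4 gates (left of the line) and 11 of their subsets (columns); blue is lower and red higher in the knockout library, and grey cells had under 50 UMIs over both libraries. Tcf7 is negative in all 15 columns, from -1.38 in cycling CD8 cells to -0.07 in naive-marker CD8 cells, with intervals that include 0 in naive-marker CD8, naive-marker CD4 and ILC1-marker NK cells; in cycling Treg cells, not drawn, it is 0.30 from 15 and 41 UMIs.

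Genes around these factors were read from 5 further lists. Of naive and memory genes, several of them known TCF-1 targets, 6 of 11 were lower in knockout CD8 cells and 5 of 10 in CD4 cells, with 0 higher in either; in Treg and NK cells 1 of 9 and 0 of 8 were lower. Of all genes, 6.06%, 2.83%, 4.35% and 1.64% were lower past the fold in CD8, CD4, Treg and NK cells, and 6.56%, 6.55%, 3.23% and 3.51% higher. The list's medians were -0.67, -0.61, -0.08 and -0.15 in CD8, CD4, Treg and NK cells. In CD8 cells the IL-6 receptor Il6ra (-1.62 [-1.87, -1.37]), S1pr1 (-1.11 [-1.22, -0.99]) and Dapl1 (-0.97 [-1.07, -0.86]) were among those furthest from 0. Of exhaustion receptors, 4 of 10 were higher in CD8 and 4 of 7 in CD4 cells and none was lower in these gates, with medians of 0.53 and 0.67; in Treg cells 1 of 10 was higher and 1 lower, and in NK cells 1 of 8 was higher. The background of higher genes was 6.56%, 6.55%, 3.23% and 3.51% in CD8, CD4, Treg and NK cells. Tnfrsf9, the co-stimulatory receptor 4-1BB, was at 67.9 and 148 CPM in CD8 cells (1.12 [1.02, 1.23]), Pdcd1 at 89.3 and 169 CPM (0.92 [0.83, 1.01]), Lag3 at 0.65 [0.54, 0.75] and Havcr2 at 0.64 [0.49, 0.79]. Effector genes were higher for 3 of 12 in CD8, 5 of 10 in CD4, 4 of 11 in Treg and 1 of 12 in NK cells and lower for 1, 0, 1 and 0, beside backgrounds of 6.56%, 6.55%, 3.23% and 3.51% higher. In CD8 cells Prf1 was at 1.08 [1.01, 1.16], Gzmb at 0.77 [0.72, 0.82], Ifng at 0.75 [0.68, 0.83] and Klrg1 at -0.62 [-0.83, -0.40].

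Other transcription factors of T-cell state were counted in CD8 cells, where 4 of 27 were lower and 1 higher, median -0.07. Over all genes of the gate 6.06% were lower and 6.56% higher, 12.6% in all, with a median of 0.07. Klf2, which drives S1pr1, was at 282 and 136 CPM (-1.05 [-1.12, -0.99]), Klf3 at -0.84 [-0.97, -0.72], Foxp1, a quiescence factor, at 161 and 92.6 CPM (-0.80 [-0.88, -0.72]) and Bcl6 at -0.70 [-1.13, -0.26]. The 1 higher gene was Nfil3, at 13.4 and 20.7 CPM (0.63 [0.39, 0.87]), named because it was the only one past the fold in that direction and so chosen after its value was seen. In CD4, Treg and NK cells 2, 2 and 0 of 26, 27 and 26 were lower and 2, 1 and 0 higher, where 9.39%, 7.59% and 5.16% of all genes passed the fold. Of E proteins, which Id2 and Id3 block, and cofactors of TCF-1, 1 of 8 passed the fold in CD8 cells, a share near the 12.6% of all genes there: the corepressor Tle1 (-0.96 [-1.82, -0.11], from 27 and 24 UMIs). In CD4, Treg and NK cells 0, 0 and 0 passed. The E protein Tcf12 was at -0.46 [-0.59, -0.33] in CD8 cells, Tcf4 at -0.38 [-0.58, -0.17] and Tle4 at -0.33 [-0.45, -0.20].

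Last, the pattern of each gene over 14 subsets of the gates in both libraries, 26 points with at least 20 cells, was compared with that of 7282 other genes by Pearson correlation of log2(CPM + 10). The points share libraries, depth and parent gates, so the correlations are descriptions. Nearest to Tcf7 were Klf2 (r = 0.94), Il17ra (0.94) and Kif1b (0.93), and nearest to Lef1 Atp1b3 (r = 0.94), Pik3ip1 (0.92) and Add3 (0.92). Satb1 and Bach2 had the pattern most alike of any pair of the 10 (r = 0.97), and both had Foxp1 and Dyrk2 among their nearest 3 genes, at 0.93 and 0.95 for Satb1 and 0.93 and 0.91 for Bach2. The remaining one for Bach2 was Gramd4 (0.92). Tox was nearest to Mt3 (r = 0.94), Lag3 (0.94) and Cdkn2b (0.93), and lay opposite to Satb1 (r = -0.82) and Tcf7 (-0.74). Eomes was nearest to Atp8b4 (r = 0.94), Gzma (0.94) and Tm6sf1 (0.94), Tbx21 to Efhd2 (r = 0.94), Ctla2b (0.93) and Klrk1 (0.93) and Id2 to Diaph1 (r = 0.95), Ubxn1 (0.94) and Ahnak (0.93). Among the 10, Id2 was closest to Tbx21 (r = 0.89) and opposite to Lef1 (-0.71) and Id3 (-0.61). The sparse genes reached lower values, Id3 with Tmem108 (r = 0.82), Fam241a (0.80) and Sh3bp5 (0.76) and Tox2 with Ptpn13 (r = 0.84), Gpm6b (0.82) and Aebp2 (0.82).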

How the data were processed

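Droplet libraries of CD45+ DAPI- tumour cells, 1 per genotype, were analysed. The deposited matrices hold raw UMI counts (whole numbers, not normalized), made with Cell Ranger 5.0.0 per the file headers and STAR on mm10 per the submitters' processing notes. Positions come from GENCODE M21 by gene identifier. Cells with at least 500 genes, 1000 UMIs and at most 10% mitochondrial UMIs were kept (11153 wild-type, 11131 knockout). A T cell needed at least 2 UMIs of Cd3d, Cd3e or Cd3g and no Ncr1 or Trdc UMI. CD8 cells had Cd8a or Cd8b1, CD4 cells Cd4 and UMIs of at most 2 of the 4 Treg-gate genes, neither with Foxp3 or the other co-receptor; NK cells had Ncr1, or Klrb1c with Klre1, and no CD3 UMI. Cells with over 2 B-cell or over 5 myeloid UMIs were removed, which takes out some doublets across lineages but none within one; cycling cells had at least 3 UMIs of 6 proliferation genes. UMIs were summed per gate and library and divided by the gate total (CPM), with exact Poisson, conditional binomial and Clopper-Pearson intervals in scipy 1.17.1. The fold rule was run on simulated Poisson counts drawn at the real totals from a shared profile. These counts hold no spread between cells, mice or libraries, so they cannot show how the rule fares with such spread. Alternatives used Scrublet in scanpy 1.11.5 and TMM factors from edgeR 4.0.16; no count model was fitted. Genes of each list were named as the 4 furthest from 0 in CD8 cells; 1 gene of the lists is not reported here by name. Members and lists were chosen with earlier results of these data known.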

Additional observations from a re-analysis of the deposited data

Results flagged for a closer look

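Eomes pointed in opposite directions in different gates, each with an interval that excluded 0: its log2 ratio of knockout over wild type was 0.99 [0.05, 2.04] in Treg cells, -0.32 [-0.44, -0.20] in CD8 cells and -0.23 [-0.33, -0.14] in NK cells. With 1 library per genotype the difference between gates was not tested. The Treg value rests on 12 and 46 UMIs, of which 1 cell held 58.3% in the wild-type and 1 cell 30.4% in the knockout library, and thinned shares of Treg cells with an Eomes UMI were 0.376% and 0.5505%, against 0.149% and 1.22% of B cells.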

How the results depend on the processing

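Of 491 log2 ratios recomputed under 16 alternatives for the 35 measured gene and gate pairs, 432 stayed inside the interval given, 58 moved outside it and 1 reversed. A reversal was counted only among the 13 pairs past 1.5-fold. It was Eomes in Treg cells, -0.23 with the highest Scrublet scores removed. Pairs inside the fold were not counted this way, and some also changed sign. Examples were Tcf7 in Treg cells (-0.51, but 0.07 with no lineage exclusion) and Tox2 in CD8 cells (-0.26, but 0.47 in thinned cells). Of 186 ratios for the 13 pairs past 1.5-fold, 168 were still past it. In CD8 cells, 6 genes passed the fold and 1 did at the wild-type makeup of subsets. In CD4 cells, 3 passed, 5 when Treg cells were taken by a Foxp3 UMI and 1 without naive-marker cells, which was Tox at 0.60 and none of the 3. In Treg cells, 3 passed; 1 did by a Foxp3 UMI, 1 with the highest Scrublet scores removed, 1 without cycling cells, 1 with a Cd4 UMI required, 1 without the cell with the most UMIs and 0 in thinned cells. Most of these losses came from the minimum of 50 UMIs and not from the ratio: of 15 alternatives Id3 was past the fold in 14, Bach2 in 13 and Eomes in 13. Without cycling cells, for example, Id3 was at -1.58 from 43 UMIs over both libraries and Eomes at 0.72 from 47. The 1 gene that passed was Lef1 (-0.61) by a Foxp3 UMI and Tcf7 (-0.68) with the highest Scrublet scores removed, and Bach2 in the other 3. In NK cells, 1 passed, 0 under the strict lineage exclusion (Tcf7 at -0.57), 2 at a minimum of 20 UMIs and 3 with no minimum. With no lineage exclusion the count was also 1, but the gene was Id3 (-1.64 from 72 UMIs), with Tcf7 at -0.50. Other causes were not tested. The thinned share of Pdcd1 cells with Tcf7, the wild-type makeup, the Cd4 requirement and the removal of shared barcodes were chosen after seeing the data. No paired analysis was possible because each genotype held 1 library, and for the same reason no replicate could be left out. Depth limits Tox2 in every gate, Eomes in CD4 and Treg cells and Id3 outside CD8 cells.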

Other observations

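B cells, gated only as a background, also held several of the genes, from 3411 wild-type and 416 knockout cells. Bach2, which B cells need for class switching and memory, stood at 157 CPM [150.5, 164] in the wild-type and 108 CPM [95.2, 123] in the knockout library. Satb1 stood at 226 CPM [218, 234] and 141 CPM [126, 158], and Id3 at 75.4 CPM [70.8, 80.1] and 46.3 CPM [37.9, 55.96]. All 3 intervals were apart, with the knockout library lower. In thinned cells the shares with a UMI were 28.01% [26.5, 29.6] and 22.7% [18.8, 27.1] for Bach2, 34.6% [33.01, 36.3] and 30.8% [26.4, 35.5] for Satb1 and 14.5% [13.4, 15.8] and 11.7% [8.78, 15.3] for Id3, overlapping for all 3. The gate itself differed between the libraries: Cd79a was at 2483 and 1813 CPM and Ighd at 866 and 468 CPM, and the myeloid genes C1qa and Fcer1g at 45.5 and 427 CPM and 287 and 462 CPM; the part of this in the levels was not tested. B-cell subsets were not separated, and these values were looked at after the data had been seen.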
